A study of Drosophila melanogaster with 58 samples.

Results

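Temporal identity factors are regulators whose level tells a neuron when in its lineage it was born. The 7 described here are chinmo, mamo, Imp, Syp, ab, br and Eip93F, chosen by name for their published part in setting and keeping the fate of mushroom body neurons in Drosophila melanogaster. The choice was made with earlier results of these data known. They are 7 of the 12453 genes in the deposited count table, and all 7 were among the 10072 genes abundant enough to be tested. Each had counts in all 58 libraries, 0 libraries being at 0 for any of them, and the lowest single count was 15, for br.

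Mushroom body neuroblasts make gamma neurons first and alpha-beta neurons last. In these neuroblasts the RNA-binding proteins Imp and Syp form opposing gradients in time, Imp being high early and Syp high late, and together they set the protein level of the zinc finger factor Chinmo, which is high in early-born neurons. The BTB zinc finger factors encoded by mamo and ab have been linked to the identity of particular mushroom body neuron types, and the transcription factors encoded by br and Eip93F are induced by the steroid hormone ecdysone and act in the pupal and adult phases of development. The libraries measured RNA, so what was compared is transcript level and not the protein gradients.

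The tested libraries were 28 from gamma neurons and 30 from alpha-beta neurons, each made by the Smart-seq2 method from 1000 sorted GFP-positive cells of dissected brains. Gamma groups held 5, 5, 5, 3, 5 and 5 libraries at 18, 21, 24, 27 and 30 h after pupa formation and in adults, and alpha-beta groups held 5, 5, 6, 4, 5 and 5. Over the pupal hours gamma neurons regrow axons that had been pruned, and alpha-beta neurons grow theirs for the first time. Adults were 3 to 5 days past eclosion, flies were reared at 25 °C, and males and females were mixed at random in all groups. The line that drove GFP in each cell type is not given in the labels, nor is any allele, so how completely each sort covered its cell type cannot be judged here. Nothing in the labels says whether the libraries of a group came from separate batches of brains, so the p-values measure the spread between these libraries, which may be partly technical.

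Levels are given as CPM, counts scaled to a common library total after TMM normalization, and n counts the libraries behind each mean and SD. They are not divided by transcript length, so they were compared between groups for 1 gene and never between genes. In libraries from sorted cells, fewer cells that make a transcript and less of it per cell cannot be told apart. Total counts ran from 4403619 to 27242758 per library, and 3 counts corresponded to 0.110 to 0.681 CPM. The mushroom body factors ey, dac and Mef2 were detected in all 58 libraries, with ey between 140 and 920 CPM in pupal libraries. The glial factor repo was at 0 in 11 of 23 pupal gamma, 7 of 25 pupal alpha-beta, 3 of 5 adult gamma and 5 of 5 adult alpha-beta libraries.

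An alpha-beta library at 24 h (replicate 6) and an adult gamma library (replicate 5) stood apart from their groups on several of the factors. In the alpha-beta library chinmo was at 1253 CPM, br at 1171 CPM and Syp at 821 CPM, whereas mamo was at 1067 CPM and ab at 194 CPM. In the same library Mef2 was at 18.8 CPM, the lowest of any pupal alpha-beta library, while wor was at 16.97 CPM and lncRNA:cherub at 2520 CPM. The glial genes Gs2 and Eaat1 were at 189.7 and 83.3 CPM there, above the other 24 pupal alpha-beta libraries, which reached 76.1 and 39.1 CPM, and repo was at 6.93 CPM, inside their range. The adult gamma library had 5529 CPM of ab, 6558 CPM of mamo, 1217 CPM of Imp and 699.9 CPM of Eip93F, and 0 CPM of repo. Most called differences of the 7 factors that involve either library are given with and without it. Other means, ratios and profile correlations include both unless stated otherwise. Without replicate 6 the alpha-beta means at 24 h were 495 CPM for chinmo, 5621 for mamo, 286 for Imp, 386 for Syp and 830 for ab. Over all tested genes, the 6 lowest of 58 median Spearman correlations of a library with its own group, 0.735 to 0.776, were all in adult groups. The median over all libraries was 0.870.

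**Figure D1:**
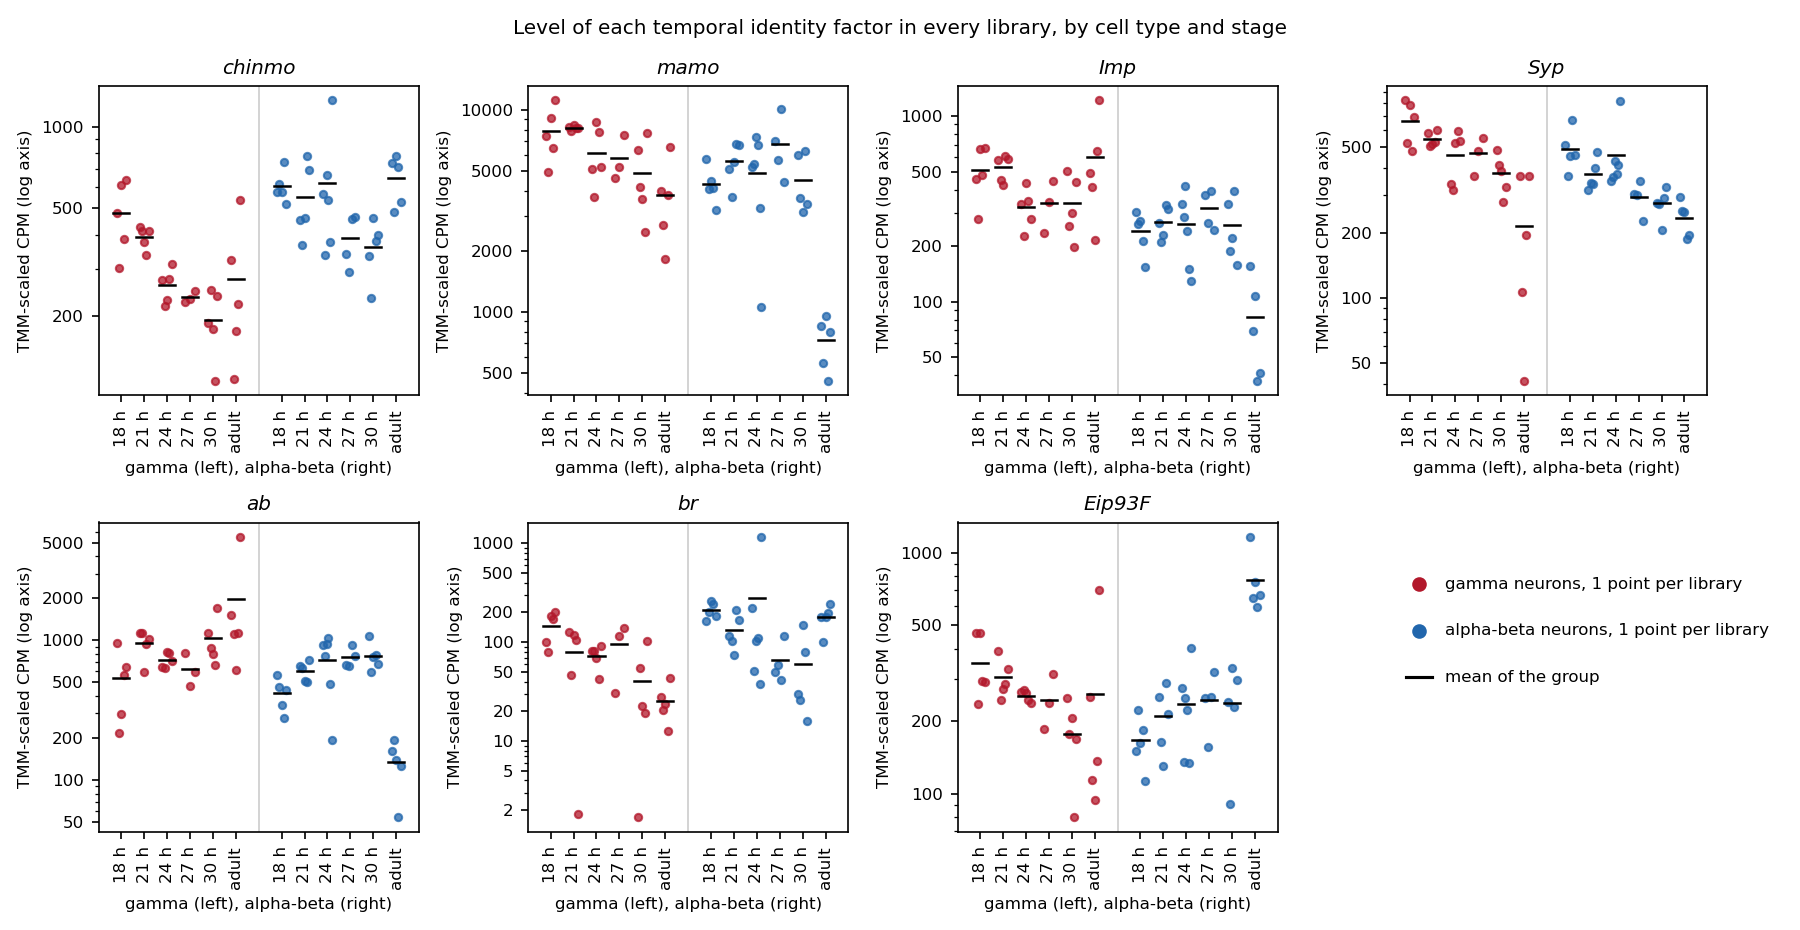
Level of each factor in every library as TMM-scaled CPM on a log axis (y), by stage (x), with gamma groups on the left and alpha-beta groups on the right of each panel. Points are libraries and black lines are group means. In adults the mamo, Imp and ab points of alpha-beta neurons lie below all gamma points, and the br points lie above all gamma points.

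The central question for these genes was where gamma and alpha-beta neurons differ and when. Calls required an adjusted p under 0.05 (Benjamini-Hochberg over all 10072 genes) in edgeR's quasi-likelihood F-test. In adults, 6 of the 7 factors were called between the cell types, against a background of 3.6% of all genes tested. Of these, mamo, Imp and ab were higher in gamma neurons, where 2.11% of all genes were called higher, and chinmo, br and Eip93F were lower, where 1.49% were. Syp was the factor not called. Because the list was chosen with earlier results of these data known, the share of 6 in 7 is a description and not an independent test.

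Single pupal stages gave few calls. At 24 h 1 factor, chinmo, was called and was lower in gamma neurons, where 0.169% of all genes were called in either direction and 0.0993% were called lower. None was called at 18 h (background 0.238%), 21 h (0.0993%), 27 h (0%) or 30 h (0.208%). At an unadjusted p under 0.05 there were 3 factors at 18 h and 1 each at 21, 27 and 30 h, where 12.3, 12.5, 6.69 and 11.8% of all genes were. By DESeq2 the counts were 1 at 18 h, 1 at 21 h, 0 at 27 h and 1 at 30 h, and by limma-voom 2, 1, 0 and 0. All background percentages are edgeR's, so counts by DESeq2 or limma-voom, here and below, stand without a share of all genes. With the 5 pupal stages averaged, which uses 48 libraries, 2 factors were called: Imp was higher and chinmo lower in gamma neurons, with 6.27% of all genes called, 2.17% as higher and 4.1% as lower.

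**Figure D2:**
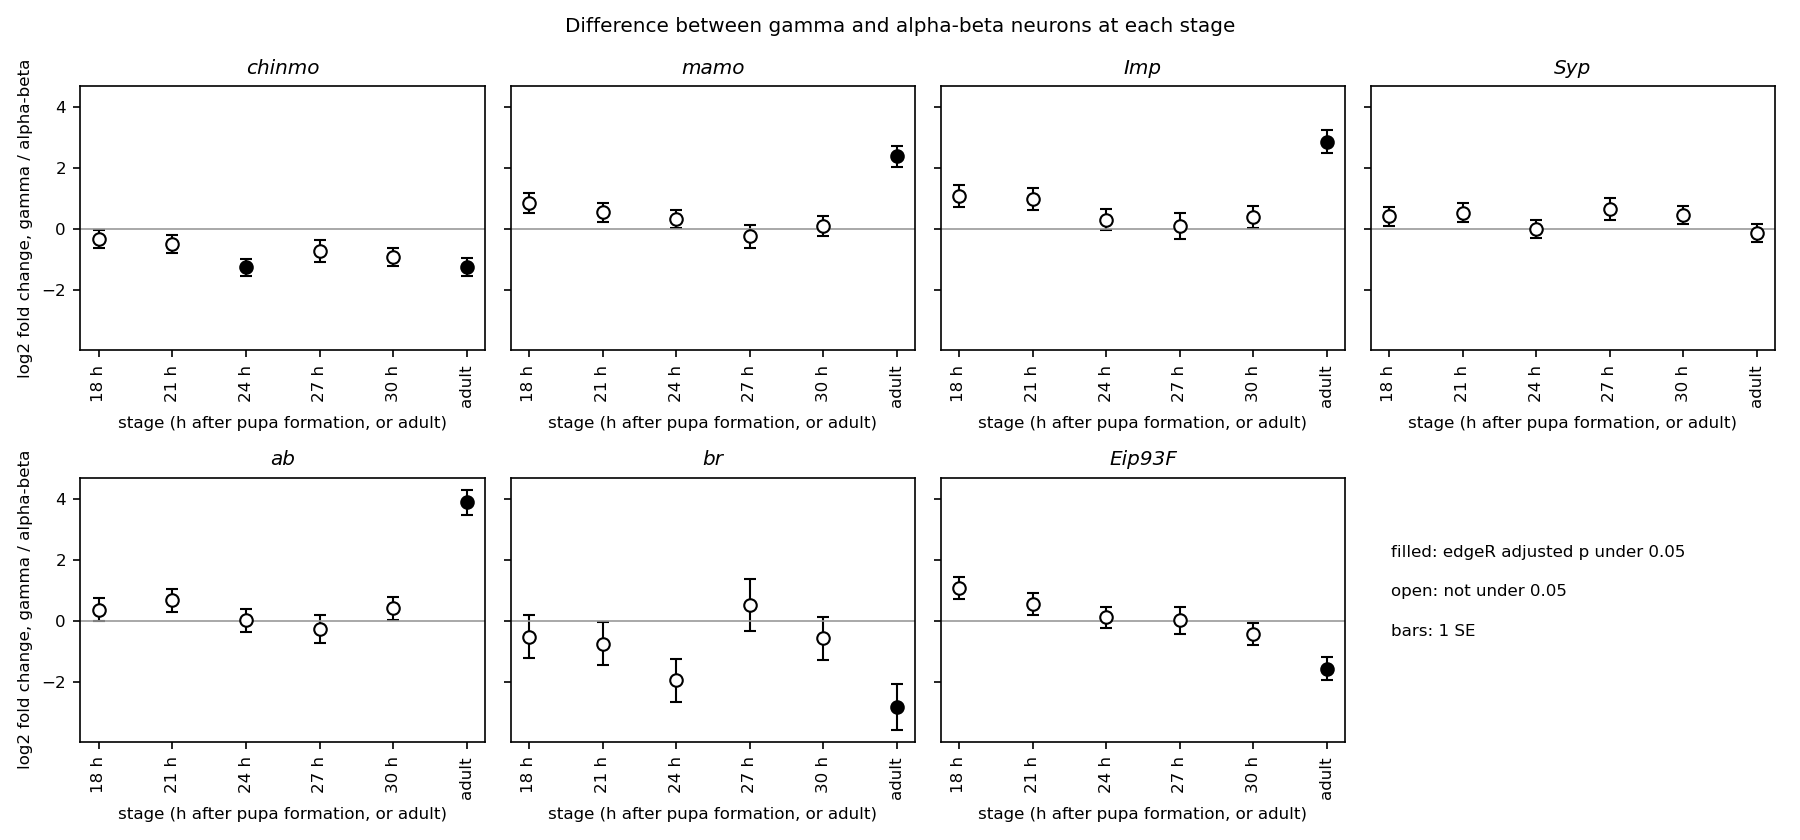
Log2 fold change of gamma over alpha-beta neurons (y) at each stage (x) for each factor, with bars of 1 SE. Filled points had an edgeR adjusted p under 0.05. Pupal points range from -1.95 for br at 24 h to 1.08 for Imp at 18 h, and of these chinmo at 24 h alone is filled. Chinmo lies below 0 at all 6 stages, and mamo, Imp and ab lie highest in adults.

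Imp encodes an RNA-binding protein that marks early neuroblast age. In gamma neurons Imp averaged 510 ± 163, 529 ± 85.9, 324 ± 78.7, 341 ± 105 and 339.6 ± 129 CPM at 18, 21, 24, 27 and 30 h (SD, n = 5, 5, 5, 3 and 5), and 598 ± 379.6 CPM in adults (n = 5). In alpha-beta neurons it averaged 240.5 ± 59.3, 269 ± 52.4, 260.1 ± 111, 318 ± 76.5 and 259 ± 101 CPM (n = 5, 5, 6, 4 and 5), and 82.1 ± 49.8 CPM in adults (n = 5). The gamma mean was therefore above the alpha-beta mean at every stage, with libraries of the cell types overlapping at 18, 24, 27 and 30 h and not at 21 h or in adults. Averaged over the pupal stages the log2 fold change was 0.57 (SE 0.16, edgeR adjusted p = 0.0206), and it was 0.53 and not called (adjusted p = 0.0574) without gamma replicate 4 at 27 h. Both DESeq2 and limma-voom called Imp at 18 h (adjusted p = 0.0487 and 0.0179) and at 21 h (0.0490 and 0.0234), where edgeR gave log2 fold changes of 1.08 (SE 0.36, adjusted p = 0.317) and 0.98 (SE 0.36, adjusted p = 0.333).

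In adult gamma libraries Imp was at 494, 414, 215, 649 and 1217 CPM, and in adult alpha-beta libraries at 156, 69.4, 107, 37.3 and 41.1 CPM. The highest alpha-beta library lay below the lowest gamma library. The fold was 7.27, which is 2.86 on the log2 scale (SE 0.38, edgeR adjusted p = 1.40e-06), and without adult gamma replicate 5 it was 2.43 on the log2 scale (adjusted p = 8.05e-06). Exons of Imp overlap those of lncRNA:CR45204 on the same strand and lncRNA:CR45624 on the opposite strand. Neither has counts of its own in the deposited data, so their part in the Imp counts cannot be judged.

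Syp encodes the RNA-binding protein that opposes Imp. Its mean in gamma neurons was 658 ± 154 CPM at 18 h, 546 ± 41.9 at 21 h, 461 ± 125 at 24 h, 468 ± 92.2 at 27 h and 378 ± 79.2 at 30 h. Alpha-beta means at the same hours were 492 ± 110.1, 375 ± 64.6, 459 ± 179.9, 295 ± 50.5 and 275 ± 43.4 CPM (SD, n as for Imp). Averaged over the pupal stages the log2 fold change of gamma over alpha-beta was 0.42 (SE 0.14), just short of a call (adjusted p = 0.0596). Without alpha-beta replicate 6 at 24 h, in which Syp was highest, it was 0.46 and called (adjusted p = 0.0256), and DESeq2 (adjusted p = 0.0287) and limma-voom (0.000346) called it with that library in. The pupal difference in Syp was thus in the same direction as that in Imp.

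In adults Syp averaged 216 ± 149 CPM in gamma and 236 ± 44.1 CPM in alpha-beta neurons (SD, n = 5 each). The 5 gamma libraries were at 367, 107, 41.4, 196 and 367 CPM and the 5 alpha-beta libraries at 294, 254, 249, 187 and 197 CPM, so the gamma values spread over and beyond the range of the alpha-beta values. The estimated log2 fold change was -0.13 (SE 0.30, edgeR adjusted p = 0.98), and its sign depended on single libraries: 0.04 without gamma replicate 2 and 0.13 without gamma replicate 3.

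The balance between Imp and Syp was measured within each library as the ratio of their counts, which does not depend on how libraries are scaled. Because the ratio is not corrected for transcript length, only its differences between groups carry meaning. Its geometric mean in gamma neurons was 0.755, 0.961, 0.709, 0.715 and 0.862 at 18, 21, 24, 27 and 30 h and 3.12 in adults. In alpha-beta neurons it was 0.485, 0.715, 0.548, 1.07 and 0.897 at the pupal hours and 0.304 in adults. All 10 pupal means thus lay between 0.485 and 1.07, with the adult gamma mean above and the adult alpha-beta mean below them.

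Adult gamma libraries had ratios of 1.35, 3.88, 5.20, 3.31 and 3.31, and adult alpha-beta libraries 0.530, 0.274, 0.430, 0.199 and 0.209, without overlap. The difference of gamma from alpha-beta neurons was 3.36 on the log2 scale, a 10.3-fold difference in the ratio. By an exact two-sided permutation test p was 0.00794, the smallest that 5 against 5 libraries allow, and 0.0529 after adjustment over the 10 ratio comparisons, which misses 0.05. The difference of adults from 30 h was 1.86 in gamma neurons and -1.56 in alpha-beta neurons (each exact permutation p = 0.0159, adjusted 0.0529). None of the 10 comparisons passed after adjustment, and 4 had an unadjusted exact p under 0.05. At 21 h, which was among the 4, the difference of gamma from alpha-beta neurons was 0.43 (exact p = 0.0238, adjusted 0.0595). At 27 h the 3 gamma libraries lay below the 4 alpha-beta libraries, a difference of -0.58 with the smallest p that design allows (exact p = 0.0571).

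**Figure D3:**
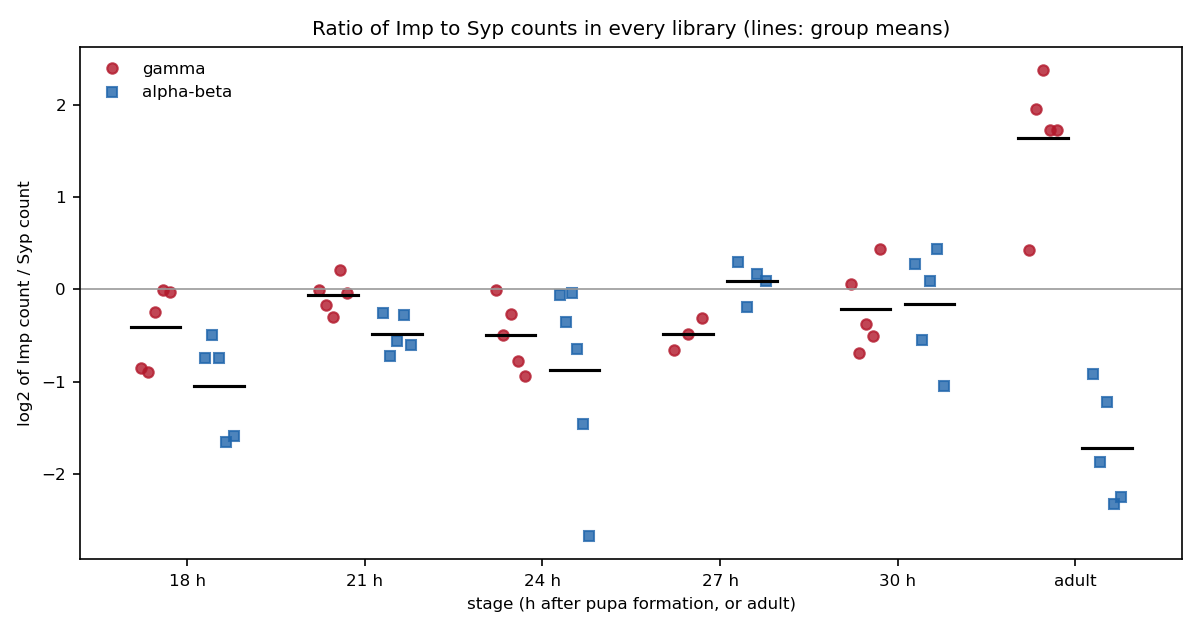
Log2 ratio of Imp to Syp counts in every library (y) by stage (x), with gamma libraries left of alpha-beta libraries and black lines at group means. The pupal groups centre between -1.04 and 0.09, the adult gamma libraries lie between 0.43 and 2.38, and the adult alpha-beta libraries lie between -2.33 and -0.92.

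Chinmo is the BTB zinc finger factor that the Imp and Syp gradients control, and its protein favours early fates. Its transcript was lower in gamma than in alpha-beta neurons at every stage by group mean. Gamma means were 482 ± 143, 393 ± 36.9, 261 ± 37.5, 235 ± 11.4 and 194 ± 53.4 CPM at 18, 21, 24, 27 and 30 h, and alpha-beta means were 605 ± 83.1, 550.1 ± 177, 621 ± 332, 389 ± 86.2 and 361 ± 84.9 CPM (SD, n as for Imp). The pupal average gave -0.74 on the log2 scale (SE 0.14, edgeR adjusted p = 0.000229), and -0.68 (adjusted p = 0.000252) without alpha-beta replicate 6 at 24 h. The call held whichever of the 48 pupal libraries was left out, at log2 fold changes of -0.76 to -0.68.

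At 24 h chinmo was at 271, 219, 229, 274 and 312 CPM in gamma libraries and at 565, 337, 662, 535, 377 and 1253 CPM in alpha-beta libraries. All gamma values lay below all alpha-beta values. The estimated log2 fold change was -1.25 (SE 0.29, edgeR adjusted p = 0.0383), but the call was lost in 8 of the 11 fits that left out 1 library. Without alpha-beta replicate 6 it was -0.91 (adjusted p = 0.280), with the groups still apart. At 30 h DESeq2 called chinmo lower in gamma neurons (-0.90, adjusted p = 0.0317), where edgeR gave -0.89 and no call (SE 0.29, adjusted p = 0.319).

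Within gamma neurons chinmo fell over the pupal hours. A line through the 5 stages had a slope of -0.11 on the log2 scale per h, which is -1.34 over the 12 h from 18 to 30 h (SE 0.27, edgeR adjusted p = 0.0227), where 0.109% of all genes had a called trend and 0.0596% a falling one. At an unadjusted p under 0.05 there were 6 factors, against 9.08% of all genes, and DESeq2 called 1 factor and limma-voom 4. Leaving out gamma replicate 3 or 5 at 18 h, replicate 2 at 27 h or replicate 4 at 30 h ended the call. In alpha-beta neurons the trend over 12 h was -0.80 and not called by edgeR (SE 0.27, adjusted p = 0.279). DESeq2 and limma-voom both called this alpha-beta fall (adjusted p = 0.0272 and 0.00813). The difference of the 2 trends was -0.55 (SE 0.38, edgeR adjusted p = 1.00), so the slopes were not shown to differ.

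Other pupal trends did not pass in edgeR. No factor was called for the alpha-beta trend (background 0.208%, with 4 factors and 8.74% of all genes at an unadjusted p under 0.05, 2 by DESeq2 and 3 by limma-voom) or for the difference of trends (background 0%, with 2 factors and 5.48% of all genes unadjusted, 0 by DESeq2 and 0 by limma-voom). Over 12 h Syp gave log2 slopes of -0.73 (SE 0.28) in gamma and -0.81 (SE 0.28) in alpha-beta neurons, so its estimates pointed down in both. DESeq2 called the Syp fall in alpha-beta neurons (adjusted p = 0.0320). Limma-voom called it in alpha-beta (adjusted p = 0.00813) and in gamma neurons (0.0181). Eip93F gave -0.92 (SE 0.34) in gamma and 0.50 (SE 0.33) in alpha-beta neurons, and the difference of -1.41 (SE 0.47) had an unadjusted p of 0.00418 and an adjusted p of 0.309. Estimates for mamo were -0.75 (SE 0.29) in gamma and 0.17 (SE 0.29) in alpha-beta neurons. By limma-voom the gamma falls of mamo and Imp were called (adjusted p = 0.00324 and 0.0307), as was the alpha-beta fall of br (0.0103).

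In adult gamma libraries chinmo was at 322, 117, 176, 222 and 538 CPM, against 732, 486, 783, 708 and 527 CPM in adult alpha-beta libraries. Only gamma replicate 5 reached into the alpha-beta range. The estimated log2 fold change was -1.23 (SE 0.30, edgeR adjusted p = 0.0090), and -1.63 (adjusted p = 0.000329) without that library. When only the 2 adult groups entered the fit the estimate was -1.22 and not called (adjusted p = 0.441).

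Mamo encodes a BTB zinc finger factor that acts in mushroom body neurons of early-born types. In pupae gamma means were 7851 ± 2431, 8194 ± 197, 6102 ± 2075, 5790.1 ± 1541 and 4868 ± 2115 CPM from 18 to 30 h, and alpha-beta means were 4309.7 ± 903, 5578 ± 1276, 4862 ± 2339, 6797 ± 2439 and 4509 ± 1509.5 CPM (SD, n as for Imp). The pupal average was 0.33 on the log2 scale (SE 0.15, edgeR adjusted p = 0.254) and was not called. Libraries of the cell types overlapped at 4 of the 5 pupal stages. At 21 h the lowest gamma library, at 7887 CPM, lay above the highest alpha-beta library, at 6827 CPM, a log2 fold change of 0.55 that was not called (SE 0.32, edgeR adjusted p = 0.542). At 18 h the estimate was 0.87 and not called (SE 0.32, adjusted p = 0.323).

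In adults mamo was at 3999, 2689, 1839.9, 3817 and 6558 CPM in gamma libraries and at 857, 561, 957, 456 and 798 CPM in alpha-beta libraries. Every gamma value exceeded every alpha-beta value, by a fold of 5.21, which is 2.38 on the log2 scale (SE 0.33, edgeR adjusted p = 2.60e-06). Without adult gamma replicate 5 the log2 fold change was 2.08 (adjusted p = 2.58e-05). By limma-voom it was 1.97 and not called (adjusted p = 0.492), although edgeR and DESeq2 called it.

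The gene ab encodes Abrupt, a BTB zinc finger factor known for its part in shaping dendrites and neuromuscular connections. Its gamma means were 535 ± 296, 962 ± 223, 728 ± 90.6, 627 ± 174 and 1031 ± 408 CPM at 18, 21, 24, 27 and 30 h, and its alpha-beta means were 416 ± 110.4, 605 ± 97.7, 724 ± 322, 754 ± 127 and 776 ± 179 CPM (SD, n as for Imp). The cell types overlapped at every pupal stage, and the pupal average of 0.24 (SE 0.18, edgeR adjusted p = 0.754) was not called.

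Adult gamma libraries held 1511, 1113, 617, 1122 and 5529 CPM of ab, and adult alpha-beta libraries 162, 194, 139, 53.9 and 127 CPM. The fold was 14.6, which is 3.87 on the log2 scale (SE 0.42, edgeR adjusted p = 1.25e-08). Replicate 5 carried much of the gamma mean, which was 1978 ± 2009.9 CPM with it (SD, n = 5) and 1091 ± 366 CPM without it (SD, n = 4). Without it the log2 fold change was 3.01 (adjusted p = 1.72e-07), and the groups stayed apart. With all libraries ab had the widest adult fold of the 7 factors, and without that library br did, at -3.10. Exons of ab overlap those of cmet on the opposite strand, and the library method does not mark strand, but cmet held 786 counts over all libraries against 584106 for ab.

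Br encodes the Broad zinc finger factors, early ecdysone response proteins of the pupal stage. It varied widely within groups: at 30 h gamma libraries held 1.69, 55.3, 22.8, 19.4 and 103 CPM and alpha-beta libraries 30.0, 25.8, 149, 80.5 and 15.96 CPM. Its pupal means were 147 ± 52.9, 79.9 ± 53.9, 73.2 ± 19.2, 94.9 ± 56.7 and 40.4 ± 39.9 CPM in gamma neurons and 211 ± 40.9, 134 ± 54.6, 283 ± 440, 66.4 ± 33.6 and 60.2 ± 55.5 CPM in alpha-beta neurons (SD, n as for Imp). The alpha-beta mean at 24 h was 105 ± 73.3 CPM (SD, n = 5) without replicate 6. With that library in, the difference of -1.95 on the log2 scale (SE 0.70) was not called by edgeR (adjusted p = 0.298). DESeq2 called it (-1.99, adjusted p = 0.0424). Without that library edgeR gave -0.51, not called.

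In adults br was at 27.99, 20.4, 23.6, 12.7 and 43.3 CPM in gamma libraries and at 180, 99.4, 179.6, 198 and 243 CPM in alpha-beta libraries, without overlap. The gamma level was 0.142 of the alpha-beta level, or -2.81 on the log2 scale (SE 0.75, edgeR adjusted p = 0.0208). The call was lost without gamma replicate 4 (-2.64, adjusted p = 0.0544), by limma-voom (-2.98, adjusted p = 0.145) and when no other groups entered the fit (-2.82, adjusted p = 0.0648). The gene Mur2B overlaps br exons on the opposite strand and held 4603 counts in all, against 85927 for br.

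Eip93F encodes an ecdysone-induced factor needed for adult differentiation, and in the mushroom body for ending neuroblast division. Its gamma means were 350.1 ± 107, 305 ± 57.96, 255 ± 13.7, 246 ± 64.4 and 176 ± 62.9 CPM from 18 to 30 h, and its alpha-beta means were 167 ± 40.5, 209.7 ± 63.8, 237 ± 100.2, 244 ± 66.7 and 238 ± 92.6 CPM (SD, n as for Imp). The cell types did not overlap at 18 h, where the log2 fold change was 1.07 (SE 0.37) with an adjusted p of 0.323 in edgeR and 0.0430 in limma-voom. By 30 h the estimate was -0.43 (SE 0.36, edgeR adjusted p = 1.00).

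Adult gamma libraries had 251, 114, 94.4, 137 and 699.9 CPM of Eip93F, and adult alpha-beta libraries 1169, 652, 759, 598 and 671 CPM. Gamma replicate 5 again fell inside the alpha-beta range while the other 4 lay well below it. The estimated log2 fold change was -1.57 (SE 0.37, edgeR adjusted p = 0.00764), and -2.38 (adjusted p = 8.46e-06) without that library. Fitted on the adult groups alone it was -1.56 and not called (adjusted p = 0.403).

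The step from 30 h to the adult was asked separately in each cell type. In alpha-beta neurons 5 factors were called, where 12.5% of all genes were: chinmo and Eip93F rose, as did 4.69% of all genes, and mamo, Imp and ab fell, as did 7.8%. In gamma neurons 0 factors were called by edgeR, where 10.2% of all genes were, with 3 at an unadjusted p under 0.05, 2 by DESeq2 and 1 by limma-voom. These comparisons and the adult comparison between cell types share the adult libraries, so they are not independent of each other.

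In alpha-beta neurons mamo fell by 2.64 on the log2 scale (SE 0.34, edgeR adjusted p = 3.24e-08), with 857, 561, 957, 456 and 798 CPM in adults against 5988, 3683, 3138, 6301 and 3435 CPM at 30 h. The adult values lay far below the 30 h values. The level of ab fell by 2.52 on the log2 scale (SE 0.40, adjusted p = 4.75e-06), the adult libraries lying between 53.9 and 194 CPM and the 30 h libraries between 596 and 1068 CPM. Imp fell by 1.66 on the log2 scale (SE 0.36, adjusted p = 0.000755), with adult values of 37.3 to 156 CPM and 30 h values of 157 to 395 CPM. By limma-voom neither mamo (-2.59, adjusted p = 0.0877) nor Imp (-1.57, adjusted p = 0.0575) was called at this step.

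Eip93F rose in adult alpha-beta neurons, to 598 to 1169 CPM against 90.6 to 334 CPM at 30 h, a rise of 1.69 on the log2 scale (SE 0.37, edgeR adjusted p = 0.000851). Chinmo rose by 0.84 (SE 0.29, adjusted p = 0.0484), with 486 to 783 CPM in adults and 234 to 462 CPM at 30 h. The values did not overlap, but this call was lost in 8 of 10 fits that left out 1 library, the adjusted p running from 0.0421 to 0.123. With no filter on low counts the chinmo call was lost too (0.85, edgeR adjusted p = 0.0603). The log2 fold change of br was 1.58 (SE 0.71, adjusted p = 0.123), and that of Syp was -0.22 (SE 0.30, adjusted p = 0.728). By limma-voom br was called at this step (1.87, adjusted p = 0.0446).

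None of the gamma estimates passed in edgeR. The log2 fold changes of adults over 30 h were 0.94 for ab (SE 0.38, edgeR adjusted p = 0.0955), 0.82 for Imp (SE 0.35, 0.120), -0.36 for mamo (SE 0.32, 0.522) and 0.50 for chinmo (SE 0.29, 0.272). Syp had -0.81 (SE 0.30, adjusted p = 0.0736), and without gamma replicate 5 it was -1.12 and called (adjusted p = 0.0145), as it was by DESeq2 (adjusted p = 0.0365). Without that library the estimate was 0.056 for ab, 0.36 for Imp, -0.68 for mamo, 0.086 for chinmo, -0.95 for br and -0.27 for Eip93F, which had been 0.56 (SE 0.37) with it.

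An interaction term asked whether the adult step was unequal in gamma and alpha-beta neurons. Of the 7 factors 3 passed, all with a positive difference, against 0.665% of all genes in either direction and 0.457% in that one: ab with a difference of log2 fold changes, gamma minus alpha-beta, of 3.46 (SE 0.55, edgeR adjusted p = 0.000232), Imp with 2.47 (SE 0.51, adjusted p = 0.00489) and mamo with 2.27 (SE 0.45, adjusted p = 0.00352). Without adult gamma replicate 5 all 3 were still called, at 2.60, 2.03 and 1.97 (adjusted p = 0.00089, 0.0202 and 0.0147), and Eip93F was called as well, at -1.94 (adjusted p = 0.0198). The estimate for br was -2.24 (SE 1.00, adjusted p = 0.320), for Eip93F with all libraries -1.14 (SE 0.52, adjusted p = 0.335), for Syp -0.59 (SE 0.43) and for chinmo -0.34 (SE 0.41). By limma-voom the differences for mamo (2.11, adjusted p = 0.522) and Imp (2.11, adjusted p = 0.113) were not called.

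**Figure D4:**
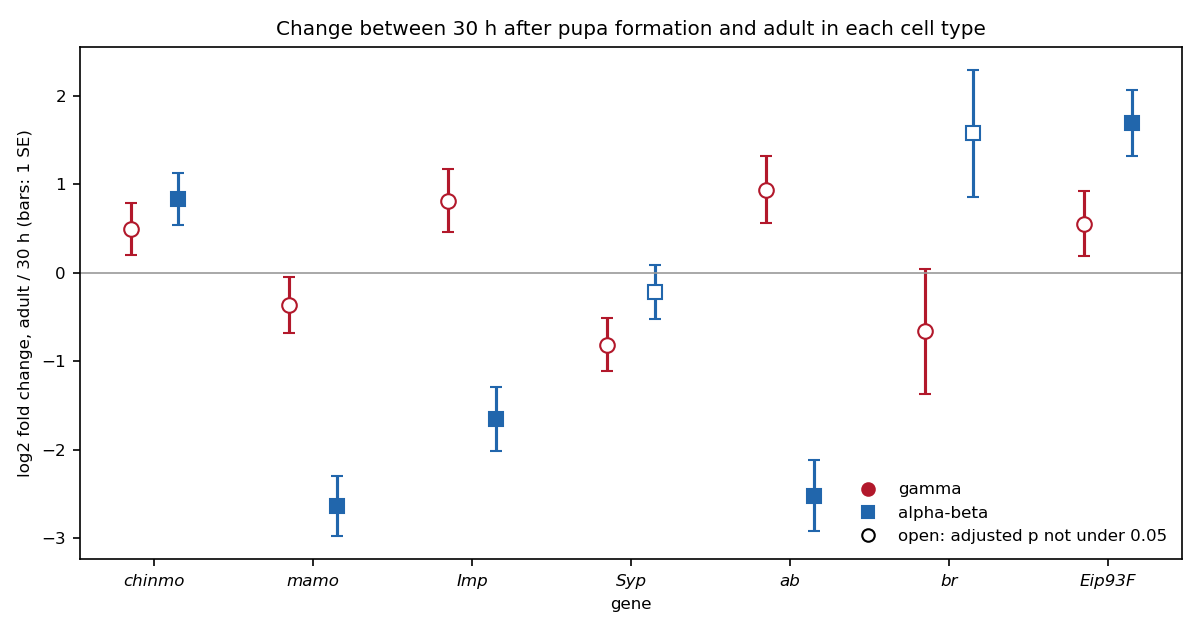
Log2 fold change of adults over 30 h (y) for each factor (x), with gamma neurons as circles on the left, alpha-beta neurons as squares on the right and bars of 1 SE. Filled symbols had an edgeR adjusted p under 0.05. In alpha-beta neurons mamo, Imp and ab lie at -2.64, -1.66 and -2.52, and the gamma symbols of these genes lie between -0.36 and 0.94.

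Markers of other cells moved with some of these contrasts. Of 8 tested neuroblast and newborn neuron markers, 5 were lower in gamma neurons over the pupal average and 0 higher, beside 4.1% and 2.17% of all genes. The summed level of the whole list of 9 ran from 1409 to 3376 CPM over pupal gamma libraries and from 2950 to 7707 CPM over pupal alpha-beta libraries. The neuroblast factor wor was at 0 in all 23 pupal gamma libraries and reached 110.4 CPM in pupal alpha-beta libraries, where 1 of 25 was at 0. The noncoding RNA lncRNA:cherub had a median of 24.8 CPM in gamma and 1287 CPM in alpha-beta pupal libraries. At the adult step 6 of the 8 were called in alpha-beta neurons, 5 lower and 1 higher in adults, and 2 in gamma neurons, both lower in adults. Of all genes 12.5% and 10.2% were called at that step. The part of such cells in the pupal differences of chinmo and Imp and in the adult step was not tested.

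In adults wor and dpn were at 0 in all 10 libraries, where 3 counts correspond to at most 0.681 CPM. Of the 8 tested neuroblast markers 2, lncRNA:cherub and pros, were lower in adult gamma neurons, where 1.49% of all genes were. The summed list ran from 786 to 3618 CPM in gamma and from 5865 to 8799 CPM in alpha-beta libraries. In these libraries lncRNA:cherub was at 0 to 22.8 and 13.2 to 108 CPM, so most of the sums came from other genes of the list. The 9 glial markers summed to 505 to 3531 CPM in adult gamma and 816 to 2801 CPM in adult alpha-beta libraries. Of them 1, wrapper, was called higher in gamma neurons, beside 2.11% of all genes. At 30 h the glial sums were 471 to 878 CPM in gamma and 454 to 698 CPM in alpha-beta libraries, and Gs2 was called higher in adults of both cell types. Of 5 hemocyte markers 3 were in the table, and their sum ran from 383 to 656 CPM in adult gamma and from 79.9 to 191 CPM in adult alpha-beta libraries. Nearly all of it was Pxn, the single one tested, which was called higher in gamma neurons in adults (1.73 on the log2 scale), at 30 h (1.54) and over the pupal average (0.90). Hml was at 0 in 4 of 5 adult libraries of each cell type. Of 9 glial markers 1, gcm, was lower in gamma neurons over the pupal average, beside 4.1% of all genes. Of 3 tested muscle markers 1, Mhc, was called higher in adult gamma neurons than at 30 h, beside 10.2% of all genes. The muscle sum reached 160 CPM in adult gamma libraries, with a median of 0. The fat body sum reached 680 CPM in gamma libraries at 24 h, with a median of 0. The part of glial, hemocyte, muscle or fat body RNA in the results was not tested.

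Across the 12 group means, the order of levels showed where each factor was extreme. Adult alpha-beta neurons ranked lowest of 12 for mamo, Imp and ab and highest for chinmo and Eip93F. Adult gamma neurons ranked highest for Imp and ab and lowest for Syp and br. Without the pair of libraries that stood apart they ranked 3 for Imp, behind gamma neurons at 21 and 18 h, and lowest for Eip93F as well, whereas these other ranks held. The highest group mean was 14.6 times the lowest for ab, 11.3 times for mamo, 11.1 times for br, 7.28 times for Imp, 4.62 times for Eip93F, 3.33 times for chinmo and 3.05 times for Syp. Without that pair it was 8.07 times for ab and 9.97 times for br, whose highest group was then alpha-beta neurons at 18 h in place of 24 h. Neighbours in these orders mostly overlapped in their libraries. The exceptions were the step between adult gamma and adult alpha-beta neurons for mamo, that between alpha-beta neurons at 18 h and adult alpha-beta neurons for ab, and that between adult alpha-beta neurons and gamma neurons at 18 h for Eip93F.

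Likeness between profiles was measured as Pearson's r of group mean log2 CPM over the 12 groups, as a description of the 12 means. All libraries were in these means, including those that stood apart. Among the factors, mamo and Imp (r = 0.861), Imp and ab (0.840) and chinmo and br (0.832) were most alike, whereas ab was most opposite to br (-0.773) and to Eip93F (-0.744). Imp and Syp had a positive r of 0.307. Among 5650 genes averaging a log2 CPM of 4 or more, the profiles nearest to chinmo were those of hth, shep and mbl (0.879, 0.874 and 0.869), and those nearest to mamo were Hexim, CG11334 and CG43658 (0.983, 0.973 and 0.972). For ab they were cmpy, Spt5 and Ythdc1 (0.953, 0.922 and 0.917), for Imp EMC6, mRpL34 and CG12851 (0.932, 0.931 and 0.925), and for Syp Psc, Wnt4 and CG17904 (0.941, 0.939 and 0.923). For Eip93F they were Dscam2, CG42541 and pan (0.905, 0.901 and 0.872), and for br CG10565, chinmo itself and Trim9 (0.844, 0.832 and 0.831).

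A wider list of 44 genes that work with these factors was examined beside them, of which 42 were in the table under the symbols used and tested. It covered TGF-beta signalling, ecdysone receptors and response genes, heterochronic genes, neuroblast temporal factors and other BTB zinc finger genes. Between adult cell types 2 of 42 (4.76%) were called, near the 3.6% of all genes, 1 higher and 1 lower in gamma neurons, with a median log2 fold change of -0.44 beside 0.00 over all genes. Over the pupal average 4 (9.52%) were called, against 6.27% of all genes, all lower in gamma neurons, namely cas, hb, nab and fru.

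The BTB gene fru, whose products include sex-specific factors of the nervous system, was higher in adult gamma neurons, with 564 to 2044 CPM against 110 to 248 CPM in adult alpha-beta neurons, a difference of 3.02 on the log2 scale (SE 0.76, edgeR adjusted p = 0.0138). It also rose at the adult step in gamma neurons, against 8.53 to 219 CPM at 30 h (log2 fold change 4.36, SE 0.81, adjusted p = 0.000108). The BTB gene bab2 was lower in adult gamma neurons, where 4 of 5 libraries were at 0 and the other at 0.636 CPM, against 0 to 14.98 CPM in adult alpha-beta neurons (adjusted p = 0.0260).

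Among the 11 ecdysone genes, the nuclear receptor gene Hr4 was the member of the list with a called pupal trend in both cell types. Its log2 slope per h was 0.34 in gamma (SE 0.05, edgeR adjusted p = 7.22e-05) and 0.28 in alpha-beta neurons (SE 0.05, adjusted p = 0.00139). Gamma means were 40.7, 183, 198, 345 and 999 CPM from 18 to 30 h, and alpha-beta means were 78.9, 113, 261, 410.1 and 784 CPM. It fell to 7.07 ± 8.20 CPM in adult gamma neurons, against 999 ± 524 CPM at 30 h (SD, n = 5 each, log2 fold change -7.13, SE 0.80, adjusted p = 1.59e-09), and was likewise called lower in adult alpha-beta neurons, at 3.36 ± 4.88 CPM against 784 ± 401 CPM at 30 h (SD, n = 5 each). The nuclear receptor gene ftz-f1 went the other way and rose to 94.7 ± 39.7 CPM in adult gamma neurons, against 0.225 ± 0.472 CPM at 30 h, and to 235 ± 95.7 CPM in adult alpha-beta neurons, against 0.884 ± 1.74 CPM at 30 h (SD, n = 5 each, adjusted p = 0.000402 and 0.000517).

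At the adult step 2 of 6 tested heterochronic genes were called in gamma neurons and 3 in alpha-beta neurons, and of 9 neuroblast temporal genes grh alone was called, in both. The translational regulator mei-P26 rose in alpha-beta neurons by 1.84 on the log2 scale (SE 0.30, edgeR adjusted p = 8.14e-06), with 999 to 1786 CPM in adults against 229 to 425 CPM at 30 h. It was also called higher in adult gamma neurons, at 366 to 1213 CPM against 147 to 396 CPM at 30 h. The neuroblast factor grh was at 0 in all 10 adult libraries, which makes it at least 10.7-fold lower in adults than at 30 h in gamma neurons and at least 7.75-fold lower in alpha-beta neurons, against a floor of 3 counts in the shallowest adult library of the cell type (adjusted p = 0.0144 and 0.0124). Those bounds rest on single 30 h libraries, being 2.22-fold without gamma replicate 1 and 4.74-fold without alpha-beta replicate 4. The cofactor gene nab was likewise at 0 in adult alpha-beta libraries, at least 11.9-fold lower than at 30 h (adjusted p = 0.0194), or 7.86-fold without alpha-beta replicate 3 at 30 h. Over the whole list 8 of 42 genes (19.05%) were called at the adult step in gamma neurons, 3 higher and 5 lower, beside 10.2% of all genes. In alpha-beta neurons 7 of 42 (16.7%) were, 2 higher and 5 lower, beside 12.5% of all genes.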

How the data were processed

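The values used were the raw counts of reads per gene that the authors deposited as 1 table, with a column for each library. Reads were aligned with STAR, per the submitters' processing notes. The genome build, annotation and counting program are not given in the sources used here, so no coordinates are printed. The table has 0 rows without a gene name and 0 count columns without a sample. The labels gave each library its cell type and its stage.

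Two-sided quasi-likelihood F-tests were run on the counts in edgeR 4.0.16 (R 4.3.3), with all 12 groups in 1 fit. Genes were kept by filterByExpr (minimum count 10, minimum total 15) and libraries scaled by TMM. The common biological coefficient of variation was 1.34. There were 13 comparisons, each adjusted over 10072 genes. Each SE was taken from F, as the size of the log2 fold change over the root of F. Trends are slopes per h through the 5 pupal group means. The Imp to Syp ratio used a pseudocount of 0.5 and exact permutation tests (scipy 1.17.1). In a simulation of the adult comparison at the dispersion trend of all genes, with 9867 genes, the test found 55 of the 200 genes given a 4-fold change (27.5%), and 3 of its 58 calls were wrong. At a fixed dispersion of 0.1, with 9259 genes, it found 200 of 200, and 12 of its 212 calls were wrong. The factors' own dispersions were not simulated.

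Alternatives were DESeq2 1.42.0, limma-voom 3.58.1 with sample weights, DESeq2 size factors, no filter, only the groups compared, blocks by replicate number and by sample sheet number in sets of 12, and leaving out each library. Those last fits held the dispersion trend of the full fit. Same-numbered libraries of different groups did not deviate together (pair correlations of -0.0249 to 0.0828 in 8 comparisons), so the numbers were not taken as pairs. Floors in CPM cover counting error only, whereas each SE also holds the spread between libraries. The members and the lists were chosen with earlier results of these data known. Genes outside the 7 factors were named by rule: the 3 most alike profiles of each factor, and for 5 comparisons up to 2 called partner genes in each direction with the largest change.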

Additional observations from a re-analysis of the deposited data

Results flagged for a closer look

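In an alpha-beta library at 24 h, replicate 6, chinmo was at 1253 CPM, Syp at 821 CPM and br at 1171 CPM, each far above the other 5 libraries of the group, which reached 662, 431 and 223 CPM. In an adult gamma library, replicate 5, ab was at 5529 CPM and Eip93F at 699.9 CPM, where the other 4 libraries reached 1511 and 251 CPM. In adult alpha-beta replicate 1 Eip93F was at 1169 CPM, where the other 4 libraries reached 759 CPM. These 6 sets were picked out of 88 by the gap of 1 library to the rest of its group, a rule by which chance picks about 1 in 20.

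The change between 30 h and adult differed between the cell types in the interaction test for mamo (2.27 on the log2 scale, gamma minus alpha-beta), Imp (2.47) and ab (3.46).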

How the results depend on the processing

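Over settings other than leaving out 1 library, 85 of 104 counts of called factors stayed within 1.5 times the value given, 129 of 144 called fold changes kept their side of the threshold and 15 lost it, and of 328 fold changes not called 30 passed and 3 changed sign. The cause was not tested. DESeq2 called 1 factor at 18 h, 1 at 21 h, 2 at 24 h, 1 at 30 h, 2 for the alpha-beta trend and 2 for the adult step in gamma neurons. Limma-voom called 2 at 18 h, 1 at 21 h, 0 at 24 h, 4 for the gamma trend, 3 for the alpha-beta trend and 1 for the adult step in gamma neurons. These counts, and all those of called factors below for other settings and for fits without 1 library, lack the share of all genes called in the same fit. A change in such a count can therefore not be set against the change over all genes. With only the groups compared 0 were called at 24 h and 3 in adults. With both libraries that stand apart left out, an alternative chosen after seeing the data, 0 were called at 24 h and 1 for the adult step in gamma neurons. With the sample sheet block 1 was called for that step. With the replicate block 0 were called at 24 h, where it drops alpha-beta replicate 6, which has no gamma partner, and 1 for that step, and 3 over the pupal average against 2, Syp being added (0.49, edgeR adjusted p = 0.0128). It changed no other count of factors. For the adult step in gamma neurons, the estimate reversed for chinmo to -0.029 by limma-voom, and for Eip93F to -0.24 by limma-voom and -0.27 without both libraries.

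With 1 library left out at a time, the counts ran from 0 to 1 at 24 h, for the gamma trend and for the adult step in gamma neurons, from 1 to 3 for the pupal average, from 5 to 6 in adults, from 4 to 5 for the adult step in alpha-beta neurons and from 3 to 4 for the interaction. Estimates that changed sign in such fits were Syp in adults (-0.42 to 0.13), br and Eip93F for the adult step in gamma neurons (-0.97 to 0.033 and -0.27 to 0.77) and the Imp to Syp ratio at 30 h (-0.28 to 0.092). At 21 h the ratio's difference ran from 0.36 to 0.49, and 1 of those fits passed after adjustment (exact permutation test, adjusted p = 0.0397). All 30 values of the ratio under another pseudocount, the replicate block or without both libraries kept their direction and missed 0.05 after adjustment. For the replicate block that miss was fixed in advance. Its exact sign-flip test allows no p below 0.0625 with 5 pairs, or below 0.5 with the 2 pairs at 27 h. Only the direction is therefore informative there.

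The factors had at least 15 counts in every library. In the simulation, 27.5% of 4-fold changes were recovered in the adult comparison at the dispersion trend of all genes, and 100% at a fixed dispersion of 0.1. The factors' own dispersions were not simulated, so neither share is a rate for them.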
